A study of Mus musculus with 29 samples.

Results

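Control MPP3 cells were compared with control LT-HSC across all genes, in 3 MPP3 and 4 LT-HSC libraries that were taken from the 29 libraries of the series by the population and genotype in their titles. LT-HSC are long-term haematopoietic stem cells, and MPP3 are multipotent progenitors with a myeloid bias. RNA-seq counts were measured in cells from the bone marrow of young C57BL/6 mice, 6 weeks after pIpC, a synthetic double-stranded RNA that induces interferon and is used to switch on Mx1-Cre. The pIpC time point is stated for the study's mice as a whole and was therefore shared by the controls. The alleles that the controls carried, the Cre driver, the sort gates and the age of the mice in weeks are not given in the sources used here. Other libraries of the same strain, tissue, age and time point served as comparisons. They were 3 LT-HSC and 4 MPP3 libraries of mice with a Dnmt3a mutation, whose allele is not given either, and 3 control libraries of ST-HSC, the short-term stem cells, and 4 control MPP4 libraries (multipotent progenitors with a lymphoid bias). Whether the replicates of a population were separate mice is not stated, and the p-values therefore describe no more than how far these libraries differ, possibly for technical reasons.

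LT-HSC divide rarely, can rebuild the whole blood system after transplantation and share a number of surface receptors and transcription factors with megakaryocytes, the cells that shed platelets. MPP3 lie downstream of them and give rise mainly to granulocytes and monocytes. Commitment to these cells is marked by the transcription factors C/EBPα and PU.1 and by early production of the primary (azurophil) granule proteins, serine proteases and myeloperoxidase that neutrophils later store and use to kill microbes. In the usual sort both populations lie in the Kit-positive, Sca-1-positive, lineage-negative fraction, where CD150 (Slamf1) marks LT-HSC, CD48 marks MPP3 and Flt3 marks MPP4.

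Total counts were 6438821 to 8234571 in the LT-HSC and 6423971 to 10368920 in the MPP3 libraries, with 16965 to 17905 and 16358 to 17560 genes detected. Levels are in CPM, counts scaled to library size with TMM. Before TMM scaling, a count of 0 allowed up to 0.364 to 0.466 CPM in LT-HSC and 0.289 to 0.467 CPM in MPP3. This takes 3 counts as the floor and covers counting error only. Mitochondrial rRNA held 25.2% to 29.8% of the counts in LT-HSC and 13.4% to 27.1% in MPP3, the lowest share being in MPP3 replicate 2. The column headers carry 1 of 2 prefixes whose meaning is not given: LT-HSC replicates 1 and 2 and MPP3 replicate 1 share one, and LT-HSC replicates 3 and 4 and MPP3 replicates 2 and 3 the other. In 3 of the 4 LT-HSC libraries (replicates 1, 2 and 3) genes of late neutrophils and red cells stood far above replicate 4, and in all MPP3 libraries immunoglobulin genes stood far above LT-HSC. The values of these marker lists are given beside the results that they touch. In bulk RNA, fewer cells of a type and less RNA per cell cannot be told apart.

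Of 14937 genes tested, 208 (1.39%) passed an adjusted p of 0.05 in edgeR's quasi-likelihood test, of which 87 (0.582%) were higher in MPP3 and 121 (0.81%) were lower. All differences are log2 values of MPP3 minus LT-HSC with the standard error (SE), and levels are TMM-scaled CPM. The groups did not overlap for 86 of the 87 higher and 113 of the 121 lower genes. Over all genes tested, 6.51% had every MPP3 library above every LT-HSC library and 6.34% had every one below. The calls were sensitive to single libraries: 24 of the higher and 23 of the lower genes passed in each of the 7 fits that left out 1 library. Of the 208 calls, 52 remained without MPP3 replicate 3, 86 without MPP3 replicate 2 and 102 without MPP3 replicate 1. Without LT-HSC replicates 1, 2, 3 and 4 in turn, 172, 79, 99 and 148 remained. Within the second header prefix alone, 2 libraries against 2, 85 genes passed (49 higher and 36 lower), and the first prefix holds 1 MPP3 library. Against LT-HSC replicate 4 alone, without the 3 libraries high in neutrophil genes, 94 passed (51 higher and 43 lower), of which 65 were among the 208. An adjusted p given with a library left out is the highest of the 7 fits. Where a gene is said to have held, it passed in all 7 of these fits. Fitted differences of genes with no count in a group depend on the prior count, and for them only a lower bound of the fold is given.

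**Figure D1:**
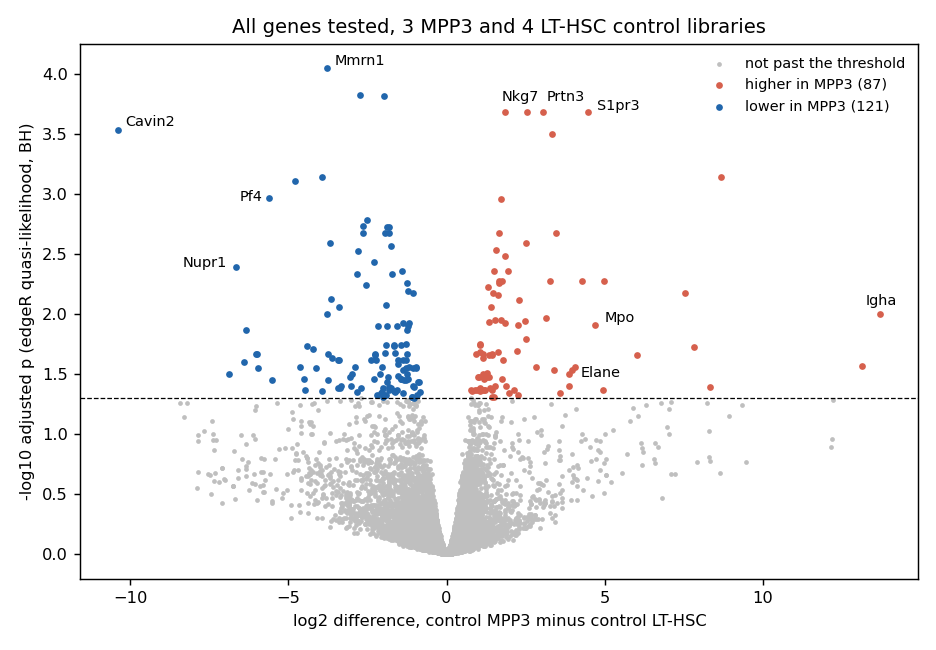
Each point is 1 of the 14937 genes tested, with the log2 difference between control MPP3 and control LT-HSC on the x axis and the −log10 of the adjusted p in edgeR on the y axis. The 87 red genes were higher and the 121 blue genes lower in MPP3, past the dashed line at an adjusted p of 0.05, with Mmrn1 at the top of the lower and Nkg7, Prtn3 and S1pr3 at the top of the higher genes.

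The genes of the sort separated the groups in the direction of the labels. Slamf1, which encodes CD150, was at 14.2, 23.9, 29.8 and 30.5 CPM in LT-HSC replicates 1 to 4 and at 2.51, 0 and 1.61 CPM in MPP3 replicates 1 to 3. Every LT-HSC library was above every MPP3 library, and Slamf1 fell by 4.14 ± 0.85 on the log2 scale (adjusted p = 0.0281). Cd48 was at 24.8, 14.9, 10.7 and 1.16 CPM in LT-HSC and 42.8, 62.7 and 78.3 CPM in MPP3, without overlap, and rose by 2.25 ± 0.54 (adjusted p = 0.0467). Cd34, a sialomucin that appears as stem cells leave the long-term state, was at 49.2, 88.1, 101 and 126 CPM in LT-HSC and 185, 404 and 275 CPM in MPP3, and its rise of 1.66 ± 0.28 held (adjusted p = 0.00549). Flt3, the receptor that marks MPP4, was at 63.3 ± 9.76 CPM (SD, n = 4) in LT-HSC and 99.1 ± 18.5 (n = 3) in MPP3 (adjusted p = 0.163), and MPP4 had 434 CPM, so that MPP3 minus MPP4 was -2.13 ± 0.23 (adjusted p = 0.000507). Kit, the stem cell factor receptor, was at 437 ± 131 and 398 ± 32.7 CPM and did not pass the test (adjusted p = 0.855), and neither did Ly6a, which encodes Sca-1, at 29.6 ± 6.52 and 50.3 ± 20.5 CPM (adjusted p = 0.33). Procr, which encodes the endothelial protein C receptor of stem cells, was at 19.6 ± 7.87 and 5.6 ± 6.23 CPM (adjusted p = 0.274). When single libraries were left out, the highest adjusted p was 0.134 without MPP3 replicate 3 for Slamf1 and 0.208 without MPP3 replicate 3 for Cd48.

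Dnmt3a, the de novo DNA methyltransferase whose mutation defines the study's other arm, was at 82, 134, 107 and 171 CPM in control LT-HSC and 99.8, 125 and 125 CPM in control MPP3. The groups overlapped, and the difference of -0.08 ± 0.22 did not pass the test (adjusted p = 0.92). None of the 10 DNA methylation genes tested passed.

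Promoter sequences are printed for the granule genes that lead the next paragraphs, because a short stretch of letters recurs before their starts. Prtn3 and Elane are neighbours on chromosome 10 and encode proteinase 3 and neutrophil elastase, and Mpo on chromosome 11 encodes myeloperoxidase. Pf4 on chromosome 5, which encodes platelet factor 4 and differed the opposite way, is shown as a counterpart. The stretches lie on the + strand before the RefSeq start (GRCm38.p6) and leave out every base of a GENCODE exon. A longer GENCODE transcript of Prtn3 starts upstream, so its stretch lies in an intron of that transcript, and those of the others lie before the gene. The motifs were chosen after the sequences had been seen. Capitals mark matches to GAGGAAGT, letters like the core of PU.1 and other ETS sites, or to TTGCNNAA, letters like a C/EBP site, on either strand.
Prtn3, chr10:79879417-79879613: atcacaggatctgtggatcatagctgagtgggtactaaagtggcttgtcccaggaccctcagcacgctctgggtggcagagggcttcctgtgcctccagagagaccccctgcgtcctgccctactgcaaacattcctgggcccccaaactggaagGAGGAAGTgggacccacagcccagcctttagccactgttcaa
Elane, chr10:79886062-79886246: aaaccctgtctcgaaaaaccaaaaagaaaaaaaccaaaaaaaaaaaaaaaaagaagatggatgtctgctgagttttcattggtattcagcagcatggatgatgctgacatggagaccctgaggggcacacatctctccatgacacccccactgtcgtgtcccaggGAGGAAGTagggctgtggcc
Mpo, chr11:87793534-87793580: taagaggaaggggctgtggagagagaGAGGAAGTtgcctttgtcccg
Pf4, chr5:90772185-90772434: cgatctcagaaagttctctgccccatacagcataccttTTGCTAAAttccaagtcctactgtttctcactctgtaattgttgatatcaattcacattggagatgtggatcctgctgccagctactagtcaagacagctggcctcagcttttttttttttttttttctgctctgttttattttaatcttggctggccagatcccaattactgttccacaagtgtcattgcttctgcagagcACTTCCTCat
The letters GAGGAAGT stood 95 to 88 bases before the RefSeq start of Prtn3, 85 to 78 before that of Elane and 224 to 217 before that of Mpo. In Pf4 they stood on the opposite strand, as ACTTCCTC, 10 to 3 bases before the start, and a TTGCNNAA match lay 212 to 205 bases before it. CAACGG, letters like a MYB site, followed downstream of the GAGGAAGT match in Prtn3 and Elane and is capitalised in the 26 bases around it. In Prtn3 these letters span the start of a GENCODE exon, and in Elane they lie within one.
Prtn3, chr10:79879601-79879626: agccactgttCAACGGctcccggcag
Elane, chr10:79886251-79886276: tggggcaataCAACGGcctctggttc
Over the 250 bases before all 32851 starts in the RefSeq table, on both strands, GAGGAAGT was present at 2.44%, CAACGG at 4.05% and TTGCNNAA at 9.56%. Of the 208 called genes 146 had a start in the table. Among starts of genes called higher in MPP3, GAGGAAGT was present at 4 of 77 (5.19%), and CAACGG and TTGCNNAA at 4 of 77 (5.19%) each. Among starts of genes called lower, they were present at 7 (6.03%), 0 and 11 (9.48%) of 116. The GAGGAAGT matches of the higher genes include Prtn3, Elane and Mpo, and their CAACGG matches include Prtn3 and Elane. Those of the lower genes include Pf4 for GAGGAAGT and TTGCNNAA. These sequences were seen before the motifs were chosen, so the shares are raised by the choice and are no test against all starts. TGTGGT, as in RUNX sites, was searched as well, was present at 4614 of all starts and occurred in none of the 4 windows. The same held for TGATAA, as in sites of erythroid zinc finger factors, which was present at 2609 of all starts. These are matches of letters and not measured binding.

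Among the 34 lists, primary granule genes held the most genes called higher, although the median of antibody-secreting cell markers, described below, was larger. The lists were chosen with earlier results of these data known, so this rank is no independent support. Of 21 members tested, 11 were called higher and 1 (Lyz2) lower, 17 lay above 0, 15 had MPP3 libraries entirely above LT-HSC, and the median was 2.06 on the log2 scale, beside -0.02 over all genes tested. The shares over all genes tested were 0.582% called higher, 0.81% called lower and 6.51% with MPP3 entirely above LT-HSC. Mpo (ENSMUSG00000009350, chromosome 11, 87793581 to 87804413 in GRCm38) was at 738, 249, 81.1 and 5.21 CPM in LT-HSC and 5654, 8093 and 7222 CPM in MPP3. Every MPP3 library was above every LT-HSC library, and the log2 difference was 4.70 ± 0.89 (adjusted p = 0.0124). Elane (ENSMUSG00000020125, chromosome 10, 79886247 to 79888215) was at 114, 45.4, 41.5 and 0 CPM in LT-HSC and 559.7, 845 and 932 CPM in MPP3 (3.96 ± 0.86, adjusted p = 0.0289). Prtn3 (ENSMUSG00000057729, chromosome 10, 79874476 to 79883174) was at 51.9, 20.5, 19.8 and 17.4 CPM in LT-HSC and 165, 281 and 236 CPM, and its rise of 3.05 ± 0.34 held (adjusted p = 0.000205). In all 3 genes LT-HSC replicate 1 was the highest stem cell library and replicate 4 the lowest, and both were below all MPP3 libraries.

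The other members of the list that rose are not all granule proteins, and they include an enzyme of haem synthesis and a chaperone. Prss57, a serine protease of the same family, went from 3.82 ± 3.11 CPM (SD, n = 4) to 42.6 ± 6.98 CPM (n = 3), a difference of 3.48 ± 0.52 that held (adjusted p = 0.00211). Nkg7, a membrane protein of cytotoxic granules, was at 27.8, 25.8, 24.6 and 20.3 CPM in LT-HSC and 114, 169 and 148 CPM in MPP3, with little spread in either group, and also held (2.55 ± 0.29, adjusted p = 0.000205). Ms4a3, a membrane protein of granulocyte-monocyte progenitors, was at 9.73, 5.28, 2.88 and 0.145 and 46.9, 48.4 and 66.6 CPM (3.58 ± 0.85, adjusted p = 0.0453). Plac8 (2.52, adjusted p = 0.0162), Igfbp4 (1.05, adjusted p = 0.0435) and Srgn (0.90, adjusted p = 0.0428), the proteoglycan core on which granule proteases are packed, rose as well. Alas1, which makes the first intermediate of the haem that myeloperoxidase carries, was at 35.9, 20.6, 16.2 and 7.67 CPM in LT-HSC and 81, 117 and 97.2 CPM in MPP3 and held (2.29 ± 0.40, adjusted p = 0.00755). Calr, the chaperone that binds newly made myeloperoxidase, went from 211 ± 39 to 598 ± 96.7 CPM and held (1.50 ± 0.24, adjusted p = 0.00435). Ctsg, which encodes the protease cathepsin G, was at 39.3, 7.92, 0.721 and 0 and 176, 212 and 229.8 CPM without overlap but missed the threshold (adjusted p = 0.0619). Gm11505, annotated on the opposite strand within Mpo (chromosome 11, 87795784 to 87801144), was called higher (4.99, adjusted p = 0.0053), and since it is not given whether counting used strand, its reads cannot be told from those of Mpo. The call of Mpo was lost at 0.0561 without LT-HSC replicate 2, and only there. Those of Elane, Ms4a3 and Plac8 were lost in several fits, at up to 0.105 without MPP3 replicate 3, 0.198 without MPP3 replicate 3 and 0.0808 without MPP3 replicate 3, as were those of Igfbp4 and Srgn, at up to 0.259 without MPP3 replicate 2 and 0.211 without MPP3 replicate 3.

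The differences of Mpo and Prtn3 were larger against LT-HSC replicate 4 alone, the control LT-HSC library lowest in S100a8, and in the Dnmt3a-mutant libraries. S100a8, a cytosolic protein of late neutrophils, was at 2260.2, 589, 357 and 3.76 CPM in control LT-HSC replicates 1 to 4 and at 60.8, 62.4 and 40.5 CPM in MPP3. Against LT-HSC replicate 4 alone, the log2 difference of Mpo was 10.39 and that of Prtn3 3.71, in place of 4.70 and 3.05. In the Dnmt3a-mutant libraries, none of which is in the control comparison, Mpo was at 5.97, 2.54 and 11.1 CPM in LT-HSC and 9472, 5016, 6856 and 3483 CPM in MPP3 (9.89 ± 0.68, adjusted p = 9.78e-08). Elane had 0 counts in all 3 mutant LT-HSC libraries and 1022.9, 551, 773 and 366 CPM in mutant MPP3, at least 2079-fold higher against a floor of 3 counts per library (adjusted p = 0.000198). Prtn3 differed by 3.51 ± 0.54 there (adjusted p = 0.000969). Of the 21 granule genes, 13 were called higher and 0 lower in the mutant comparison, with a median of 2.78. Over all 14766 genes tested there, 436 (2.95%) passed, 252 (1.71%) higher and 184 (1.25%) lower. The part of neutrophil RNA in the control LT-HSC values was not tested. Replicate 4 is 1 library selected by its S100a8 level, and the mutant libraries differ in genotype, so these comparisons cannot test it.

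**Figure D2:**
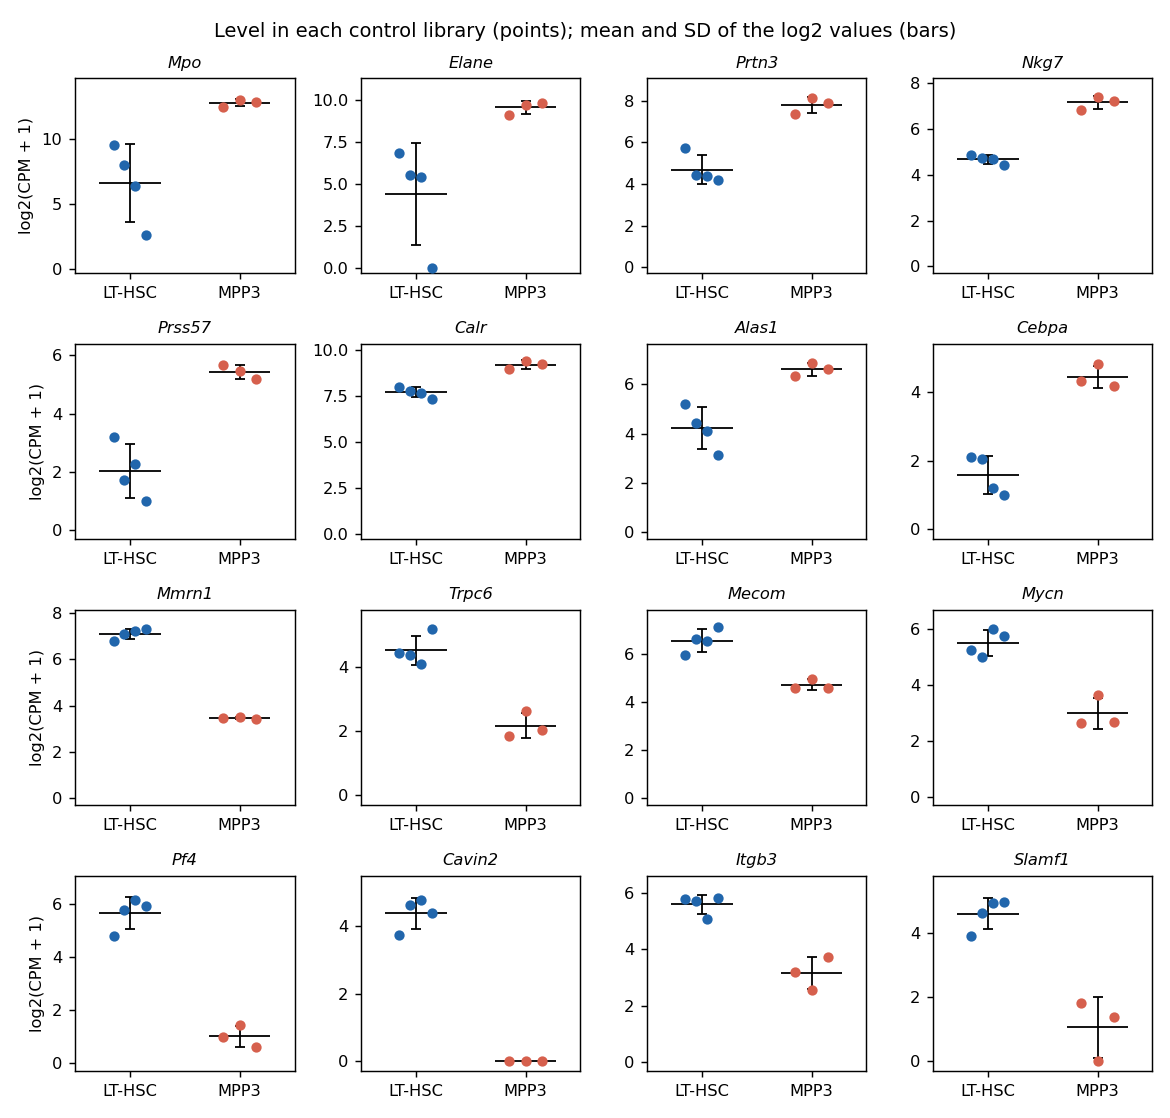
Each point is 1 control library, with the level as log2(CPM + 1) on the y axis and the mean and SD of the log2 values as black bars, for 8 genes that rose (upper rows) and 8 that fell (lower rows). LT-HSC and MPP3 libraries do not overlap in any of the 16 panels, and Mpo and Elane spread most within LT-HSC, down to 5.21 and 0 CPM in replicate 4.

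Single regulators and receptors of the myeloid lineage passed in controls, where 1.39% of all genes tested passed. Of 23 myeloid transcription factors tested 1 was called, and their median was -0.02, with 11 above 0 and 12 below. Against LT-HSC replicate 4 alone, without the 3 libraries high in neutrophil genes, the median was 0.59, with 16 above 0 and 7 below. In the mutant libraries it was 0.68, with 18 above 0 and 4 called, all higher. The gene called in controls was Cebpa, which encodes C/EBPα, at 3.29, 3.12, 1.32 and 1.01 CPM in LT-HSC and 19.1, 27.3 and 17.3 CPM in MPP3, and its rise of 3.27 ± 0.55 held (adjusted p = 0.00524). Spi1, which encodes PU.1, was at 50.2, 60.4, 39.3 and 21.1 CPM in LT-HSC and 43, 52.1 and 61.7 in MPP3, with overlap (adjusted p = 0.753). In the mutant libraries, where LT-HSC were at 26.2 CPM, Spi1 rose by 1.37 ± 0.29 (adjusted p = 0.0116). Irf8, which directs monocyte and dendritic fates, was at 55.4, 16, 16 and 2.75 and 43.8, 51.4 and 71.6 CPM (adjusted p = 0.617), and Gfi1, a repressor needed for neutrophils, at 26.3, 4.44, 3.72 and 3.04 and 40, 24.7 and 32.6 CPM (adjusted p = 0.18). Both were called in the mutant libraries, at 3.94 ± 0.82 and 2.80 ± 0.72 (adjusted p = 0.0109 and 0.0396). Myb, a progenitor transcription factor, was at 437 ± 83 CPM in LT-HSC and 707 ± 39.9 in MPP3 and missed the threshold (adjusted p = 0.0721). The test of the difference between the genotypes' contrasts called 0 (0.0%) of 15915 genes in edgeR, with 963 (6.05%) at an unadjusted p under 0.05. DESeq2 called 64, and edgeR called 46 without control LT-HSC replicate 4.

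Among 33 cytokine receptors, 1 was called higher and 1 lower, with a median of 0.06 and 19 above 0. Over all genes tested 0.582% were called higher and 0.81% lower. Their median against LT-HSC replicate 4 alone was 1.04, with 28 above 0, and in mutants it was 0.99, with 10 called higher and 1 lower. Il1r1, the interleukin-1 receptor, went from 10.3, 8.52, 7.09 and 8.97 CPM in LT-HSC to 19.4, 48.6 and 20.1 CPM in MPP3, and its rise of 1.75 ± 0.29 held (adjusted p = 0.00524). MPP4 were higher still, at 120.2 CPM, and MPP3 minus MPP4 was -2.03 ± 0.30 (adjusted p = 0.00255). Csf1r, the receptor for macrophage colony-stimulating factor, was at 78, 41.8, 25.3 and 3.18 CPM in LT-HSC and at 38.1, 37.2 and 37.6 CPM in MPP3, with overlap (adjusted p = 0.995). Its log2 difference of 0.02 became 3.56 against LT-HSC replicate 4 alone (adjusted p = 0.182) and 1.38 within the second header prefix. In the mutant libraries, with 2.45, 1.73 and 6.21 CPM in LT-HSC and 59.1, 35, 26.4 and 28.3 in MPP3, it was called at 3.42 ± 0.87 (adjusted p = 0.0388). Csf2rb, the shared signalling chain of the receptors for interleukin-3 and GM-CSF, was at 61.4 ± 29.3 and 116 ± 14.7 CPM (adjusted p = 0.224) in controls and was called at 2.60 ± 0.36 in mutants (adjusted p = 0.000432). Pdgfrb, a platelet-derived growth factor receptor listed here with stromal markers, rose from 3.06 ± 0.881 to 17.5 ± 5.7 CPM and held (2.51 ± 0.38, adjusted p = 0.00255), while the other 15 stromal and endothelial markers tested did not pass.

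Genes of the endoplasmic reticulum, where granule proteins are folded and glycosylated, lay mostly above 0. Over all genes tested 48.5% lay above 0, 6.51% had MPP3 entirely above LT-HSC and 0.582% were called higher. Of 28 genes of folding and the unfolded protein response, 25 were above 0, 15 had groups that did not overlap, all with MPP3 higher, and 4 were called, with a median of 0.77. They were Calr, given above, Xbp1, the transcription factor of the unfolded protein response, at 43.2, 83.8, 80.5 and 62.7 CPM in LT-HSC and 225, 152 and 209 in MPP3 (1.53 ± 0.28, adjusted p = 0.0112), Pdia4, a disulfide isomerase (1.33 ± 0.27, adjusted p = 0.0219), and Hyou1, a chaperone of the Hsp70 family (1.44 ± 0.35, adjusted p = 0.0491). Of 32 genes of entry into the ER and N-glycosylation, 29 were above 0 and 20 had MPP3 entirely above LT-HSC, with a median of 0.63. Sec61a1, the channel of the translocon, was the 1 member called (0.98 ± 0.22, adjusted p = 0.0334). Atf6b, a stress sensor of the ER membrane outside these lists, rose by 1.22 ± 0.27 (adjusted p = 0.0324), and Sdf2l1, a chaperone partner, went from 20.8 ± 7.49 to 54.9 ± 15 CPM and missed the threshold (adjusted p = 0.0721). Calr held. The adjusted p of the others reached 0.0723 without MPP3 replicate 3 for Xbp1, 0.117 without MPP3 replicate 3 for Pdia4 and 0.211 without MPP3 replicate 3 for Hyou1. It reached 0.139 without MPP3 replicate 2 for Sec61a1 and 0.16 without MPP3 replicate 2 for Atf6b. Antibody-secreting cells also use this machinery, and their markers moved the same way, as given below. The part of those markers in the ER genes was not tested. In mutants 5 of 28 folding genes and 0 of 32 entry genes were called, all higher, with medians of 0.95 and 0.38.

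The genes that rose include 5 enzymes that act on glycans, which come from no list and were grouped after their values were seen. B4galnt1 and B4galt6, which extend glycosphingolipids, went from 46.4, 37.2, 29.2 and 16.5 to 112, 132 and 133 CPM and from 32.6, 28.4, 44.6 and 30.4 to 98.7, 108 and 97.2 CPM. Both pairs of groups were apart, and both calls held (1.96 ± 0.32 and 1.58 ± 0.24, adjusted p = 0.00439 and 0.0029). Cmah, which makes N-glycolylneuraminic acid, rose by 1.01 ± 0.23 (adjusted p = 0.0333, up to 0.131 without MPP3 replicate 3). Arsb, a lysosomal sulfatase, went from 39.3 ± 12.8 to 122 ± 10.5 CPM and held (1.63 ± 0.28, adjusted p = 0.00686). Gnptab, which tags enzymes for the lysosome, rose by 0.77 ± 0.18 (adjusted p = 0.0426, up to 0.187 without MPP3 replicate 2).

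Metabolic lists lay a little above 0 as a whole with 1 call each. Among all genes tested, 48.5% lay above 0 and 0.582% were called higher. Of 35 genes of oxidative phosphorylation 33 were above 0, with a median of 0.40, and Cox5a, a subunit of complex IV, was called (1.29 ± 0.28, adjusted p = 0.031). Of 22 glycolysis genes 15 were above 0 and Pgam1, a phosphoglycerate mutase, was called, from 85.1, 97.7, 58.1 and 52.5 CPM in LT-HSC to 141, 301 and 189 CPM in MPP3 (1.52 ± 0.35, adjusted p = 0.0398). Hk3, the hexokinase of myeloid cells, was at 26.1 ± 18.8 and 77.2 ± 7.31 CPM and missed the threshold (adjusted p = 0.0955). Single enzymes outside the lists moved further: Chdh, which oxidises choline, was at 11.9, 2.04, 1.08 and 0 CPM in LT-HSC and 50.9, 59.3 and 52.8 CPM in MPP3 (3.87 ± 0.89, adjusted p = 0.0397), and Gatm, the first enzyme of creatine synthesis, went from 22.8 ± 6.13 to 62.2 ± 13.1 CPM (1.45 ± 0.30, adjusted p = 0.0215). Bcat1, which degrades branched-chain amino acids, was at 0.143, 0.36, 0.12 and 0 and 9.48, 2.67 and 3.97 CPM (adjusted p = 0.0426), so its LT-HSC values are at or under the floor. Gstm1, a glutathione transferase, rose from 52.2 ± 14.7 to 145 ± 15.2 CPM and held (1.47 ± 0.26, adjusted p = 0.00661). Adjusted p-values went up to 0.183 without MPP3 replicate 2 for Cox5a, 0.215 without MPP3 replicate 2 for Pgam1 and 0.124 without LT-HSC replicate 2 for Chdh. For Gatm and Bcat1 it reached 0.0884 without MPP3 replicate 2 and 0.161 without MPP3 replicate 1.

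Cell cycle genes shifted by small amounts. Among all genes tested, 48.5% lay above 0 and 0.582% were called higher. Of 37 genes of DNA replication 31 were above 0 and 0 were called (median 0.29), and of 30 genes of G2 and mitosis 27 were above 0 and 1 was called (median 0.40). That gene was Aurkb, the kinase of the chromosome passenger complex, at 50.7 ± 11.8 and 98.7 ± 13.9 CPM (0.96 ± 0.22, adjusted p = 0.0426, up to 0.183 without MPP3 replicate 2). Mki67, a proliferation marker, was at 3113, 1426, 1451 and 983 CPM in LT-HSC and 1349, 1238 and 1646 CPM in MPP3, with overlap (adjusted p = 0.75). The highest of these values was in LT-HSC replicate 1, which was also the library highest in late neutrophil and erythroid genes. Cdk6, the kinase that sets how fast stem cells leave quiescence, was at 289.7, 454, 469 and 493 and 571, 823 and 775 CPM without overlap (adjusted p = 0.0894). Cdkn1c, the inhibitor p57 of quiescent stem cells, was at 7.15, 3.36, 4.8 and 8.25 CPM in LT-HSC and 1.67, 0.141 and 0 CPM in MPP3, also without overlap (adjusted p = 0.256). Ribosome biogenesis (0 of 28 called, 24 above 0) and the proteasome (0 of 25, 19 above 0) had medians of 0.34 and 0.19.

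Lymphoid genes lay mostly above 0 in controls. Of 29 members tested 22 were above 0 and 2 were called, both higher, with a median of 0.56. Over all genes tested 48.5% lay above 0 and 0.582% were called higher. The median against LT-HSC replicate 4 alone was 2.29, and in mutants the median was 0.91, with 12 called higher and 2 lower. Markers of antibody-secreting cells were higher in the same MPP3 libraries, as given below, and their part in these values was not tested. Dntt, the terminal transferase of early lymphoid cells, was at 5.01, 0.36, 0.721 and 0.289 CPM in LT-HSC and 25.8, 32.6 and 20.5 CPM in MPP3 (4.07 ± 0.87, adjusted p = 0.0276). Dntt stayed far below MPP4, which had 284 CPM (MPP3 minus MPP4 -3.43 ± 0.83, adjusted p = 0.0473). Satb1, a chromatin organiser of lymphoid cells, was at 23.5 ± 16.8 and 67.6 ± 23.5 CPM (adjusted p = 0.101) and was -2.15 ± 0.46 relative to MPP4 (adjusted p = 0.0268). Il7r, the interleukin-7 receptor, was at 22.6, 7.44, 4.32 and 0 and 17.9, 9.84 and 17.2 CPM (adjusted p = 0.846). The call of Dntt did not hold, and its adjusted p reached 0.0982 without LT-HSC replicate 2.

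Further genes that rose encode receptors and signalling proteins among others, and were grouped after their values were seen. Adgrg3, an adhesion G protein-coupled receptor, was at 56.1, 54.1, 57.9 and 40.4 CPM in LT-HSC and 162, 196 and 206 CPM in MPP3. S1pr3, a receptor for sphingosine 1-phosphate, was at 0.715, 1.68, 0.48 and 0.289 and 18.7, 20.1 and 15.8 CPM, a fitted 22.3-fold rise. Its LT-HSC value was under the floor of 3 counts in replicate 4 and near it in replicate 3, so the size of the fold is uncertain. Tespa1, an adaptor of antigen receptor signalling, was at 5.29, 3, 2.64 and 1.01 and 29.3, 35.8 and 25.9 CPM. In all 3 the groups were apart, with differences of 1.85 ± 0.21, 4.48 ± 0.51 and 3.34 ± 0.40 that held (adjusted p = 0.000205, 0.000205 and 0.000314). Ramp1, a partner of the receptor for the neuropeptide CGRP, went from 14.7 ± 4.09 to 48.8 ± 10.8 CPM (1.73 ± 0.23, adjusted p = 0.0011). It held, as did Spns3, a transporter-like protein (1.65 ± 0.27, adjusted p = 0.00524), H2afy, the macroH2A1 histone (1.85 ± 0.29, adjusted p = 0.00326), and Epha7, an ephrin receptor (3.15 ± 0.58, adjusted p = 0.0107). Mc5r, a melanocortin receptor (2.26, adjusted p = 0.0123), Ccl9, a chemokine (1.88, adjusted p = 0.0394), and BC035044 (3.41, adjusted p = 0.0293) rose as well. Their calls were lost, at up to 0.0792 without MPP3 replicate 2, 0.222 without MPP3 replicate 3 and 0.131 without MPP3 replicate 3.

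Among genes of stem cell identity 10 fell, and the overlapping list of megakaryocyte and platelet genes held 12 of the 121 falls. Of 29 LT-HSC genes tested 25 were below 0, 18 had LT-HSC libraries entirely above MPP3, 10 were called lower and 0 higher, and the median was -1.70. Among all 14937 genes tested, 7686 were below 0, 6.34% had LT-HSC entirely above MPP3 and 0.81% were called lower. Mmrn1 (ENSMUSG00000054641, chromosome 6, 60924976 to 60989378), which encodes the platelet and endothelial protein multimerin 1, was at 109, 136, 147 and 157 CPM in LT-HSC and 9.9, 10.4 and 9.66 CPM in MPP3. It had the smallest p of all genes, and its log2 difference of -3.78 ± 0.36 held (adjusted p = 8.94e-05). Nupr1, a stress-response chromatin protein, was at 9.87, 10.9, 8.05 and 12.3 CPM in LT-HSC, while the MPP3 libraries held 2 counts in all (adjusted p = 0.00406), and Trpc6, a calcium-permeable channel, was at 20.7, 19.9, 16.3 and 35.3 and 2.65, 5.2 and 3.11 CPM (-2.66 ± 0.39, adjusted p = 0.00211). Both held. Clec1a, a C-type lectin of endothelium and stem cells, was at 12, 15.7, 10.8 and 11.4 and 0.418, 0.984 and 0.107 CPM (adjusted p = 0.0276, up to 0.148 without MPP3 replicate 3). Vwf, the platelet adhesion protein that marks platelet-biased stem cells, went from 136 ± 18.9 to 40.8 ± 10.2 CPM and held (-1.73 ± 0.28, adjusted p = 0.00462). Fgd5, a GTPase exchange factor used to mark LT-HSC, was at 24.7 ± 7.47 and 6.72 ± 5.03 CPM (adjusted p = 0.0538), and Hoxb5 at 6.87, 5.52, 13.9 and 9.98 and 1.67, 1.55 and 1.18 CPM (adjusted p = 0.0751), and both missed the threshold. Hlf, another marker of stem cells, was at 509 ± 139 and 325 ± 163 CPM (adjusted p = 0.349) and had means of 973 CPM in ST-HSC and 763 CPM in MPP4 (MPP3 minus ST-HSC -1.58 ± 0.31, adjusted p = 0.0207).

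Transcription factors of self-renewal lay mostly below 0. Of 30 tested 27 were below 0, 7 were called lower and 0 higher, with a median of -1.16. Among all 14937 genes tested, 7686 were below 0 and 0.81% were called lower. Mecom, the zinc finger factor Evi1, was at 61.7, 97.1, 90.9 and 137 CPM in LT-HSC and 22.7, 30.2 and 23.1 CPM in MPP3, and Mycn, the Myc paralog of stem cells, at 37.2, 31.2, 63.5 and 52.7 and 5.3, 11.4 and 5.47 CPM. In both genes the groups were well apart although LT-HSC replicate 1 was the lowest or second lowest stem cell library. The log2 differences were -1.93 ± 0.28 for Mecom and -2.65 ± 0.38 for Mycn, and both held (adjusted p = 0.00211 and 0.00185). Sox6 (-1.90 ± 0.34, adjusted p = 0.00838), Prdm16, a histone methyltransferase that maintains stem cells (-1.80 ± 0.42, adjusted p = 0.0428), Gata2 (-1.29 ± 0.29, adjusted p = 0.0354) and Egr1, an immediate-early factor linked to quiescence (-1.29 ± 0.25, adjusted p = 0.0177), also fell. The adjusted p reached 0.0709 without MPP3 replicate 3 for Sox6 and 0.203 without MPP3 replicate 3 for Prdm16. For Gata2 and Egr1 it reached 0.198 without MPP3 replicate 3 and 0.0938 without MPP3 replicate 3. Meis1 was at 343 ± 105 and 167 ± 12.5 CPM without overlap and missed the threshold (adjusted p = 0.0538). Of 18 Hox genes and cofactors 16 were below 0 and 1 was called.

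Megakaryocyte and platelet genes overlap the stem cell list. Of 25 tested 24 were below 0, 18 had LT-HSC entirely above MPP3 and 12 were called lower, with a median of -1.69. The shares over all genes tested were 6.34% with LT-HSC entirely above MPP3 and 0.81% called lower. Pf4 (ENSMUSG00000029373, chromosome 5, 90772435 to 90773383), the chemokine of platelet granules, was at 26.5, 53.2, 69.5 and 60.1 CPM in LT-HSC and 0.976, 1.69 and 0.536 CPM in MPP3, a log2 difference of -5.62 ± 0.76 that held (adjusted p = 0.00107). Cavin2, which builds caveolae, was at 12.4, 24.1, 26.5 and 20 CPM in LT-HSC and had 0 counts in all 3 MPP3 libraries, at least 53.6-fold lower against a floor of 3 counts per library, and held (adjusted p = 0.000292). The groups were completely apart for both. Itgb3, the β3 chain of the platelet fibrinogen receptor, was at 53.1, 50.7, 32.7 and 55.4 and 8.23, 4.92 and 12.1 CPM and held (-2.50 ± 0.35, adjusted p = 0.00164). Its partner Itga2b was at 58.8 ± 11.8 and 24.1 ± 5.73 CPM, also apart, and missed the threshold (adjusted p = 0.0523). F2r, the thrombin receptor (-1.65 ± 0.33, adjusted p = 0.0182), Slc18a2, the amine transporter that loads platelet granules (-1.26 ± 0.28, adjusted p = 0.0316), Mfsd2b, which exports sphingosine 1-phosphate (-1.62 ± 0.38, adjusted p = 0.0447), Fyb (-1.26 ± 0.26, adjusted p = 0.0214) and Rap1b (-0.96 ± 0.20, adjusted p = 0.0273), 2 proteins that activate platelet integrins, fell by smaller amounts. Clu, which encodes clusterin, was at 4.15, 3.48, 3.72 and 3.47 CPM in LT-HSC, and the MPP3 libraries held 1 count in all (adjusted p = 0.0281). None of these 6 held, with an adjusted p of up to 0.0822 without MPP3 replicate 3 for F2r, 0.139 without MPP3 replicate 3 for Slc18a2 and 0.236 without MPP3 replicate 3 for Mfsd2b. It reached 0.121 without MPP3 replicate 3 for Fyb, 0.121 without MPP3 replicate 2 for Rap1b and 0.163 without MPP3 replicate 3 for Clu. Vwf and Mmrn1, given above, are called members too.

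Outside the list, 2 enzymes that follow each other in the making of the platelet activator thromboxane fell as well, and they were picked out after their values were seen. Ptgs1, the cyclooxygenase of platelets, was at 80.7, 96.8, 92.1 and 110.1 CPM in LT-HSC and 33.6, 43.7 and 49 CPM in MPP3 (-1.17 ± 0.25, adjusted p = 0.0272, up to 0.122 without MPP3 replicate 1). Tbxas1, thromboxane synthase, was at 107, 120.3, 126 and 185 and 43.2, 31.6 and 39.5 CPM and held (-1.82 ± 0.26, adjusted p = 0.00187). In mutants the differences were -1.85 and -2.14 (adjusted p = 0.0015 and 0.000263).

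Of 35 adhesion and niche receptors tested 2 were called lower and 2 higher, with a median of -0.11. The shares over all genes tested were 0.81% lower and 0.582% higher. Further genes that fell are given here, grouped after their values were seen. Angpt1, the ligand angiopoietin 1, was at 179, 286, 248 and 382 CPM in LT-HSC and 119, 170.5 and 107 CPM in MPP3 (-1.05 ± 0.24, adjusted p = 0.0399). Tgfbr3, the co-receptor betaglycan, was at 47.1, 94.1, 108 and 109 and 11.8, 22.4 and 20.4 CPM and held (-2.29 ± 0.36, adjusted p = 0.00365). It was the 1 called of 27 genes of the TGF-β and BMP pathways, whose median was -0.16. Lhcgr, the receptor for luteinizing hormone, was at 13.3, 21.1, 20.4 and 30.1 CPM in LT-HSC and 0.418, 1.55 and 0.322 in MPP3, and Plxnc1, a semaphorin receptor, at 183, 289, 333 and 398 and 81, 79.4 and 96.5 CPM. Both held (-4.81 ± 0.63 and -1.81 ± 0.27, adjusted p = 0.000783 and 0.00211). Further genes that held were Itsn1, an endocytic scaffold (-1.97 ± 0.21, adjusted p = 0.000151), Nbea (-3.94 ± 0.51, adjusted p = 0.000713), Dst, a cytolinker (-1.88 ± 0.27, adjusted p = 0.00187), Pdzk1ip1 (-3.69 ± 0.56, adjusted p = 0.00255) and Gucy1a1, a subunit of the nitric oxide receptor (-2.79 ± 0.43, adjusted p = 0.00298). Jam2, a junctional adhesion molecule (-3.78 ± 0.69, adjusted p = 0.0099), Tgm2, a transglutaminase (-2.99 ± 0.66, adjusted p = 0.0316), Grb10, an adaptor that dampens insulin and Kit signalling (-2.03 ± 0.44, adjusted p = 0.0276), and Fam110c (-4.49 ± 1.06, adjusted p = 0.043) fell too. These calls did not hold, at up to 0.0514 without MPP3 replicate 2 for Jam2, 0.172 without MPP3 replicate 3 for Tgm2 and 0.162 without MPP3 replicate 3 for Grb10. It reached 0.179 without MPP3 replicate 2 for Fam110c and 0.222 without MPP3 replicate 3 for Angpt1.

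Interferon-stimulated genes lay mostly below 0 in these mice, all of which had received pIpC. Of 46 tested 41 were below 0, 13 had LT-HSC entirely above MPP3, 4 were called lower and 0 higher, and the median was -0.71. Among all 14937 genes tested, 7686 were below 0, 6.34% had LT-HSC entirely above MPP3 and 0.81% were called lower. Iigp1, a GTPase induced by interferon, was at 19.5, 22, 27.4 and 27.6 CPM in LT-HSC and 3.21, 1.83 and 5.04 CPM in MPP3, and its log2 difference of -2.83 ± 0.46 held (adjusted p = 0.00464). Samd9l, an antiviral and growth-restraining gene, was at 72.1, 73.1, 55.7 and 50.2 and 22.7, 18.6 and 29.2 CPM and held (-1.42 ± 0.23, adjusted p = 0.00435). Oasl2 (-1.43 ± 0.32, adjusted p = 0.0347) and Gm4951 (-2.71 ± 0.63, adjusted p = 0.0413) were the others, with adjusted p up to 0.19 without MPP3 replicate 3 and 0.211 without MPP3 replicate 3. Isg15, the ubiquitin-like interferon product, was at 9.01, 5.88, 3 and 1.74 and 0.558, 0.281 and 0.215 CPM without overlap and missed the threshold (adjusted p = 0.0526). Enzymes and sensors of the same response outside the list also fell and were picked after their values were seen: Uba7 and Ube2l6, which attach Isg15 to proteins (-1.43 ± 0.28 and -1.62 ± 0.33, adjusted p = 0.0179 and 0.0209), Ddx60 (-1.52 ± 0.32, adjusted p = 0.0258), Trim56 (-1.25 ± 0.21, adjusted p = 0.00549) and Tlr3, the receptor for double-stranded RNA, at 7.44, 4.2, 6 and 1.59 and 0.279, 0.281 and 0.536 CPM (adjusted p = 0.0232). The adjusted p reached 0.0989 without MPP3 replicate 3 for Uba7, 0.105 without MPP3 replicate 3 for Ube2l6 and 0.146 without MPP3 replicate 3 for Ddx60. It reached 0.0627 without MPP3 replicate 3 for Trim56 and 0.106 without MPP3 replicate 2 for Tlr3. In the mutant libraries 7 of 46 listed genes were called lower and 0 higher, with a median of -0.35, while 1.25% of all genes tested there were called lower. Iigp1 was called there (-2.44 ± 0.47, adjusted p = 0.00625), while Gm4951 and Tlr3 were not (adjusted p = 0.972 and 0.941).

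Immediate-early genes, which respond within minutes to signals and to cell isolation, lay mostly below 0, with 2 of 28 called lower and a median of -0.46. The share called lower over all genes tested was 0.81%. Their direction turned against LT-HSC replicate 4 alone, to a median of 0.10 with 17 above 0 and 11 below. Nr4a1, a nuclear receptor that restrains stem cell division, was at 97, 96.9, 72.5 and 75.5 CPM in LT-HSC and 29.1, 26.6 and 19.7 CPM in MPP3 and held (-1.77 ± 0.27, adjusted p = 0.00268). The second was Egr1, given above. Nr4a2 was at 50.9 ± 19.4 and 12.9 ± 3.74 CPM (adjusted p = 0.0945). Ppp1r15a, which reverses the block on translation under stress, fell by 1.23 ± 0.23 (adjusted p = 0.0126, up to 0.0945 without MPP3 replicate 3), and Tnip3, an inhibitor of NF-κB signalling, fell by 2.55 ± 0.43 and held (adjusted p = 0.00568). In mutants the median of the list was 0.04, and Nr4a1 alone of the 28 was called (-1.35 ± 0.34, adjusted p = 0.0383).

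Late neutrophil genes stood high in 3 control LT-HSC libraries, opposite in direction to the granule genes. The summed level of 17 markers was 12947, 4755, 2043 and 114 CPM in LT-HSC replicates 1 to 4 and 242 to 347 CPM in MPP3. All 17 were below 0, with a median of -4.29, but the groups overlapped for every one of them, and the sum of LT-HSC replicate 4 lay below every MPP3 library. Il1b, which encodes interleukin-1β, was at 79.3, 162, 47.9 and 1.01 CPM in LT-HSC and 1.25, 0 and 0.536 CPM in MPP3 and was called lower (adjusted p = 0.0316). Retnlg, a resistin-like protein of neutrophils, was at 226, 146, 68 and 2.89 and 10.9, 3.65 and 6.97 CPM and was called too (adjusted p = 0.0435), as was Lyz2, lysozyme, the granule list's 1 faller, at 2099, 1495, 567 and 153 and 207, 105 and 141 CPM (adjusted p = 0.0443). Further genes called lower were likewise lowest in LT-HSC replicate 4. The chemokine Cxcl2 was at 68.7, 63.6, 17.9 and 3.62 CPM in LT-HSC (adjusted p = 0.0193), the protease Adam8 at 65.7, 48, 20.2 and 1.59 CPM (adjusted p = 0.0182) and Slfn4 at 47.2, 48.7, 40.5 and 1.45 CPM (adjusted p = 0.035). Slfn14 was at 59.2, 31.6, 25.3 and 1.16 CPM (adjusted p = 0.0215), Mxd1, a Myc antagonist, at 216, 172, 148 and 35.6 CPM (adjusted p = 0.0401) and ENSMUSG00000089672 at 145, 274, 65.3 and 8.25 CPM (adjusted p = 0.0408). None of these 9 calls held. The adjusted p reached 0.167 without MPP3 replicate 3 for Il1b, 0.205 without MPP3 replicate 3 for Retnlg and 0.208 without MPP3 replicate 3 for Lyz2. It reached 0.0989 without MPP3 replicate 3 for Cxcl2, 0.0929 without MPP3 replicate 2 for Adam8 and 0.162 without MPP3 replicate 3 for Slfn4. For Slfn14, Mxd1 and ENSMUSG00000089672 it was up to 0.0929 without MPP3 replicate 2, 0.157 without MPP3 replicate 3 and 0.179 without MPP3 replicate 2. Against replicate 4 alone, the signs of Retnlg, Slfn4, Mxd1 and ENSMUSG00000089672 turned, at 1.31, 0.80, 0.19 and 0.48, and Lyz2 was at -0.01. In the mutant libraries the 17 markers summed to 118 to 510.0 CPM in LT-HSC and 71.8 to 687 CPM in MPP3, and 0 of 15 tested were called.

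Erythroid genes followed the same libraries. Their summed level was 31763, 7054, 10389 and 1290.0 CPM in LT-HSC replicates 1 to 4 and 2552 to 3604 CPM in MPP3, with Hbb-bs, a β-globin whose reads can be shared with its paralogs, at 9291, 2578, 3020.4 and 191 and 702, 633 and 546 CPM (adjusted p = 0.129). Of 27 tested 25 were below 0 and 1 was called lower, with a median of -1.03, while 0.81% of all genes tested were called lower. Against LT-HSC replicate 4 alone the median was 1.59, and in mutants it was 1.40, with 5 of 27 called higher and 2 lower. The member called in controls was Zfpm1, the GATA1 cofactor FOG1, at 86.8, 54.3, 116 and 61.8 and 32.9, 38.9 and 26.9 CPM (-1.28 ± 0.28, adjusted p = 0.0279, up to 0.178 without MPP3 replicate 3). Car2, a carbonic anhydrase, was at 569 ± 128 and 243 ± 81.3 CPM without overlap (adjusted p = 0.0523). The part of these RNAs in other differences was not tested.

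**Figure D3:**
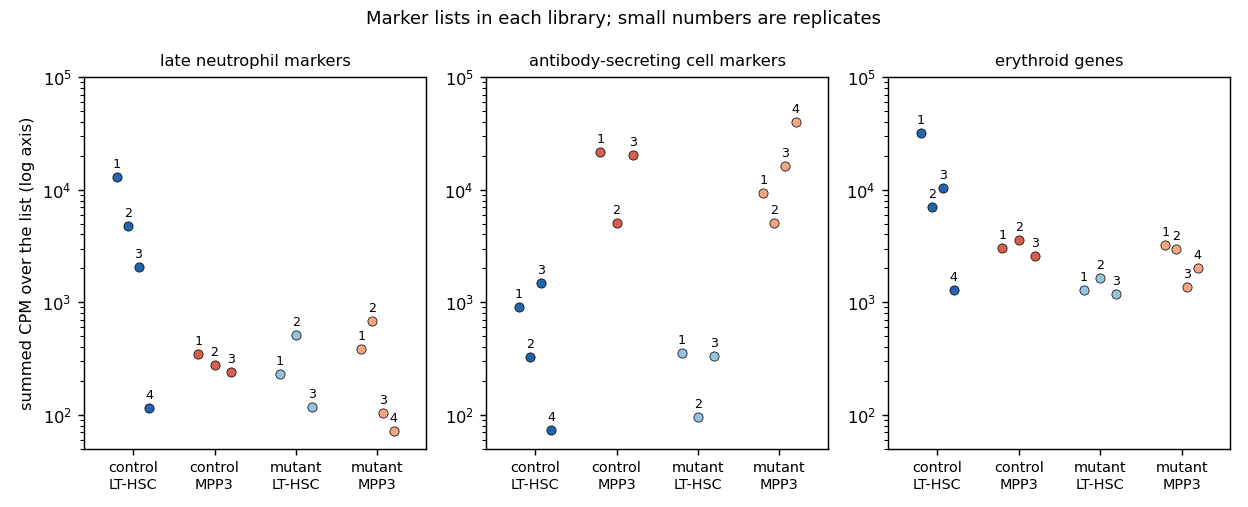
Each point is 1 library and its number the replicate, with the summed CPM of the list on a logarithmic y axis, for 17 late neutrophil markers, 18 antibody-secreting cell markers and 27 erythroid genes. Control LT-HSC replicates 1, 2 and 3 lie above every other library in the neutrophil and erythroid panels, and MPP3 of both genotypes lie above LT-HSC of both genotypes in the antibody panel.

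Immunoglobulin genes stood high in every MPP3 library of both genotypes. The summed level of 18 antibody-secreting cell markers was 73.1 to 1493 CPM in LT-HSC and 21462, 5035 and 20183 CPM in MPP3. In control ST-HSC it ran from 104 to 4833 CPM with a median of 234, and in control MPP4 from 323 to 434 CPM. All 17 members tested were above 0, 10 had MPP3 entirely above LT-HSC and 3 were called, with a median of 3.97. The shares over all genes tested were 48.5% above 0, 6.51% with MPP3 entirely above LT-HSC and 0.582% called higher. Ighg1, Ighg2b and Ighg3 had 0 counts in every LT-HSC library, so they passed the filter through other groups. Their direction was thereby fixed in advance, and the list's count above 0, its calls and its median are partly set by the filter. Igha, Ighv9-3 and ENSMUSG00000094062 had counts in 1 LT-HSC library each, at or under the floor, and also passed through other groups. Their direction was nearly fixed as well, so the calls of these genes and of Ighg3 are no support for it. Igha, the constant region of IgA, was at 1239, 667 and 47.8 CPM in MPP3 with 1 count in all 4 LT-HSC libraries together (adjusted p = 0.0099, 0.0705 without LT-HSC replicate 3). Ighg3 had 0 counts in LT-HSC and was at 77.4, 0 and 346 CPM in MPP3 (adjusted p = 0.027, up to 0.121 without MPP3 replicate 3), so replicate 2 was at 0 as well. The other call was Xbp1, which is also counted among the ER genes. Igkc, the κ light chain constant region, was at 104, 21.4, 211 and 1.59 and 5491, 771 and 3439.8 CPM (adjusted p = 0.0915), Jchain at 7.01, 0, 19 and 0.145 and 522, 141 and 437 CPM (adjusted p = 0.0767), and Prdm1, the plasma cell factor Blimp-1, at 6.72, 3.48, 1.08 and 0.868 and 43.8, 6.18 and 40.1 CPM (adjusted p = 0.0562). Variable segments that were called were Ighv6-3, at 28, 25.6 and 16.9 CPM in MPP3 (adjusted p = 0.00524), Ighv9-3, at 6.41, 12.1 and 44 CPM (adjusted p = 0.00661), and Igkv12-44, at 18.5, 13.9 and 9.12 CPM (adjusted p = 0.0219, up to 0.0911 without MPP3 replicate 1). ENSMUSG00000094062, which has no symbol here, was at 30.8, 17.6 and 11.5 CPM with 1 count in LT-HSC (adjusted p = 0.000713). RSEM shares reads between near-identical segments, so the level of a single segment is uncertain. None of 15 mature B cell markers was called in controls, where 12 were above 0 with a median of 0.68. Their sum was 868, 265, 325 and 120.4 CPM in LT-HSC replicates 1 to 4 and 560.5 to 618 CPM in MPP3, so replicate 1 alone lay above MPP3. With LT-HSC replicate 4 as the only stem cell library 13 were above 0. In mutants 9 of the 15 were called, all higher, with a median of 3.69. Leaving all immunoglobulin genes and Jchain out of the fit gave 82 higher and 121 lower genes.

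**Figure D4:**
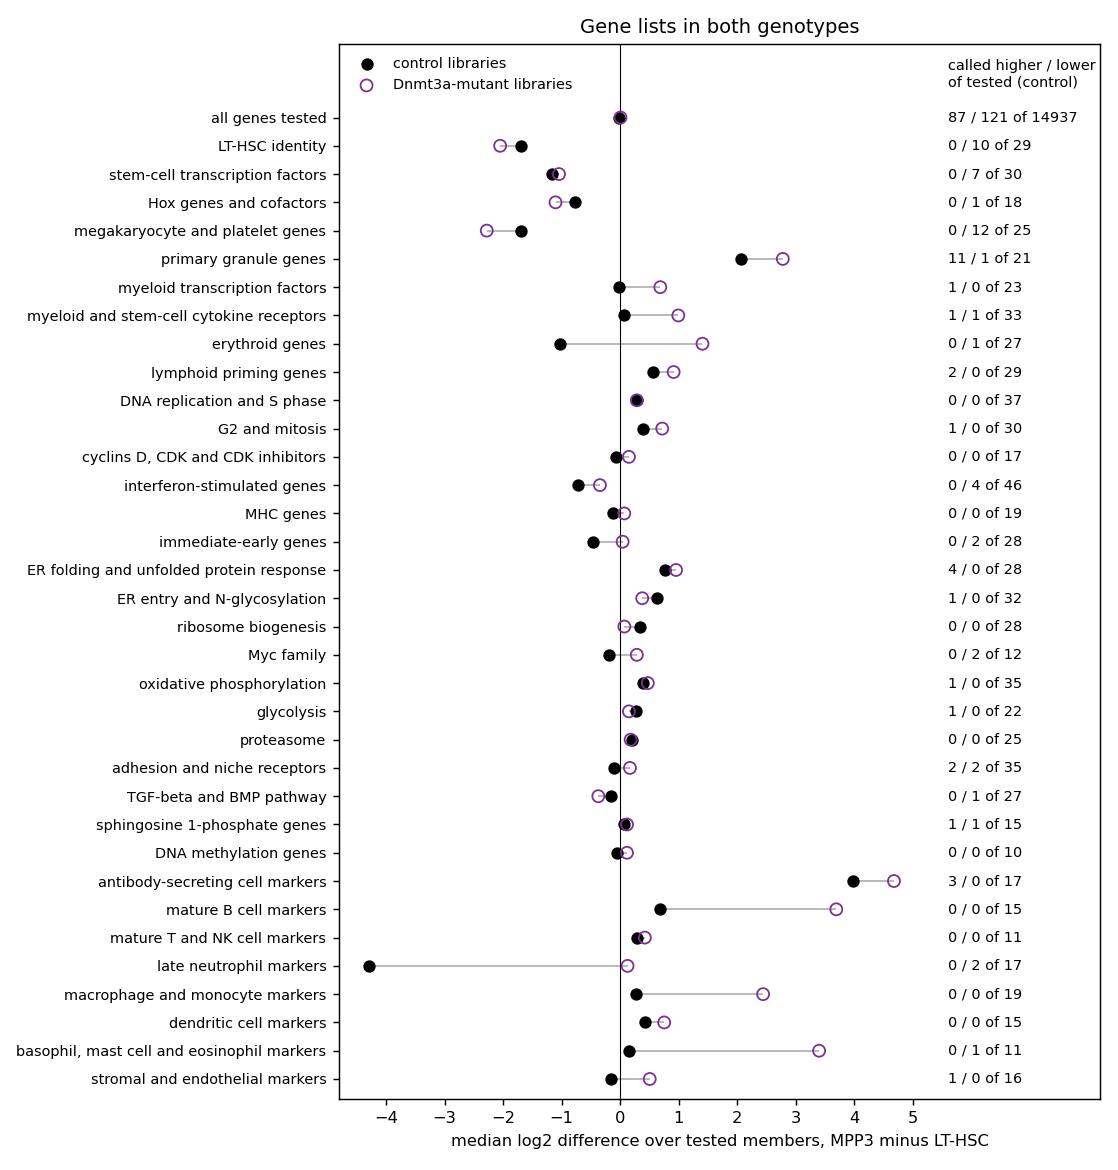
Each row is a gene list, with the median log2 difference between MPP3 and LT-HSC over its tested members on the x axis, filled for control and open for Dnmt3a-mutant libraries, and the counts of members called higher and lower in controls at the right. Primary granule and antibody-secreting cell lists lie to the right of 0 and stem cell and megakaryocyte lists to the left in both genotypes, while the medians of erythroid and late neutrophil genes are below 0 only in controls.

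The same contrast in mutant libraries shares no library with the controls. Of the 87 higher genes 85 were tested there, 83 had the same sign (97.7%) and 44 were also called higher, which is 50.6% of the control list and 17.5% of the 252 genes called higher in mutants. Of the 121 lower genes 111 had the same sign (91.7%) and 59 were also called lower, 48.8% of the control list and 32.1% of the 184 lower genes in mutants. Over all genes tested in both genotypes 64.5% had the same sign. The median log2 difference of the higher genes was 1.67 in controls and 1.65 in mutants, and that of the lower genes was -1.93 and -1.56. The 10 lower genes with the opposite sign in mutants were Mxd1, Cpeb4, Xpo7, Retnlg, Tlr3, Cxcl2, Lyz2, Gm4951, Slfn14 and ENSMUSG00000089672, and the 2 higher ones were Nosip and Msrb3. Some control calls were of similar size in mutants: Mmrn1 was at 180.3, 185 and 243 CPM in mutant LT-HSC and 2.19, 21.5, 11.8 and 14.1 CPM in mutant MPP3 (-4.02 ± 0.51, adjusted p = 0.000186). Pf4 was at 58.2, 44.4 and 46.2 and 0.914, 0.831, 0.103 and 0 CPM (-6.80 ± 0.83, adjusted p = 0.00012), and Cavin2 again had 0 counts in every MPP3 library, at least 93.3-fold below mutant LT-HSC (adjusted p = 0.00012). Cebpa was at 4.7, 8.88 and 1.58 and 12.2, 14.4, 24.6 and 21.2 CPM in mutants and did not pass there (1.84 ± 0.64, adjusted p = 0.158), and for Pdgfrb and Ramp1 the mutant differences were 1.33 ± 0.71 and 0.95 ± 0.36 (adjusted p = 0.425 and 0.208).

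**Figure D5:**
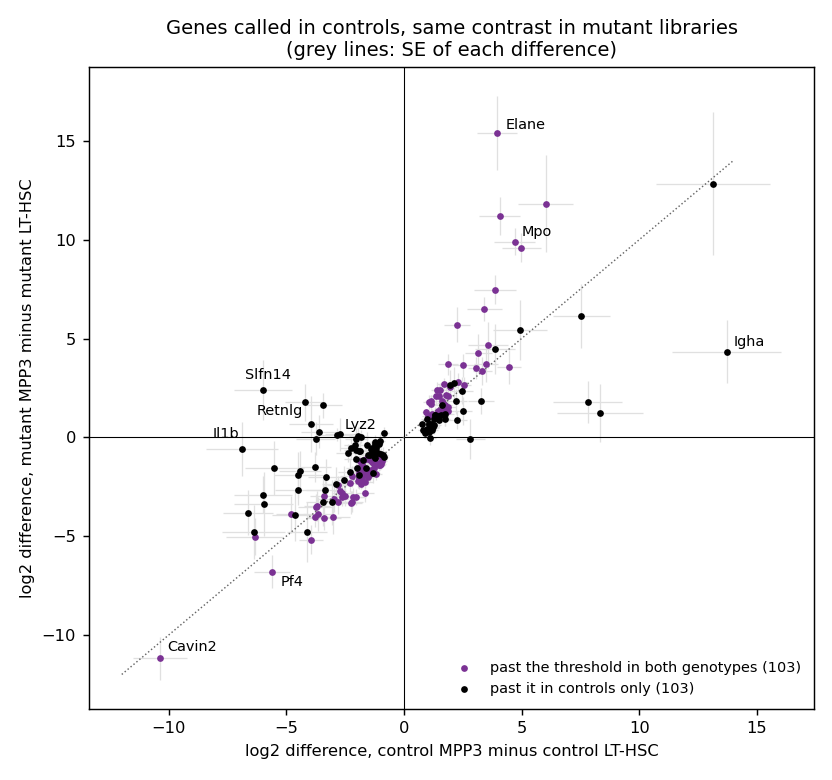
Each point is 1 of the 206 genes called in controls and tested in mutants, with the control log2 difference (MPP3 minus LT-HSC) on the x axis, the mutant one on the y axis, the SE as grey lines and equality as the dotted line. Purple genes, 103 in all, passed in both genotypes with the same sign, Elane and Mpo lie above the line, and Lyz2, Retnlg and Slfn14 lie above 0 in mutants although they were lower in control MPP3.

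MPP3 were set directly against the other control progenitors, as MPP3 minus MPP4 and MPP3 minus ST-HSC in the same fit, in which the LT-HSC libraries cancel. MPP3 minus MPP4 called 149 higher and 66 lower genes (0.998% and 0.442%, 215 or 1.44% in all), and MPP3 minus ST-HSC called 147 higher and 115 lower (0.984% and 0.77%, 262 or 1.75% in all). These comparisons share the MPP3 libraries with the comparison against LT-HSC. Prtn3 was higher than in MPP4 and ST-HSC by 2.66 ± 0.34 and 3.05 ± 0.38 (adjusted p = 0.00124 and 0.00155), and Elane, at 3.56 CPM in MPP4 and 23.4 in ST-HSC, by 7.72 ± 1.03 and 5.06 ± 1.02 (adjusted p = 0.00136 and 0.0227). Alas1, Calr and Nkg7 also passed in both, Alas1 by 2.66 ± 0.41 and 3.25 ± 0.47 (adjusted p = 0.00309 and 0.00456), Calr by 1.16 ± 0.24 and 1.64 ± 0.27 (adjusted p = 0.025 and 0.00832) and Nkg7 by 1.57 ± 0.28 and 2.75 ± 0.32 (adjusted p = 0.00944 and 0.00134). Mpo, with 808 CPM in MPP4, passed against ST-HSC (5.56 ± 1.04, adjusted p = 0.0164) and missed the threshold against MPP4 (3.11 ± 0.83, adjusted p = 0.0838). S1pr3, Adgrg3 and Tespa1 did not differ from MPP4 past the threshold, at 0.66 ± 0.44, -0.30 ± 0.21 and 0.21 ± 0.37 (adjusted p = 0.662, 0.681 and 0.919). Cebpa, with 14.4 CPM in MPP4, was at 0.56 ± 0.51 against it (adjusted p = 0.798) and at 2.36 ± 0.58 against ST-HSC (adjusted p = 0.0472).

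For the genes that fell, the order of the populations differed from gene to gene. Mmrn1 was at 49.8 CPM in ST-HSC and 12.8 in MPP4, and MPP3 were lower than ST-HSC (-2.32 ± 0.35, adjusted p = 0.00552) but not past the threshold against MPP4 (-0.37 ± 0.32, adjusted p = 0.786). Mecom and Trpc6 were lower in MPP3 than in ST-HSC, at -2.12 ± 0.30 and -2.77 ± 0.41 (adjusted p = 0.00365 and 0.00474), and missed the threshold against MPP4 (adjusted p = 0.0778 and 0.0666). Pf4 and Cavin2 were already near 0 in ST-HSC, at 2.34 and 0.589 CPM (adjusted p = 0.489 and 0.0558). Sox6, Tgfbr3, Mfsd2b and Slc18a2 were higher in MPP3 than in MPP4, by 2.23 ± 0.33, 1.82 ± 0.35, 2.80 ± 0.39 and 1.73 ± 0.27 (adjusted p = 0.00259, 0.0152, 0.00152 and 0.00378), although all 4 were lower than in LT-HSC. Iigp1 and Nr4a1 were lower in MPP3 than in both, Iigp1 at -2.21 ± 0.45 and -3.02 ± 0.48 (adjusted p = 0.0218 and 0.00789) and Nr4a1 at -1.50 ± 0.27 and -1.55 ± 0.28 (adjusted p = 0.00891 and 0.0124).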

How the data were processed

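RNA-seq was analysed from a table of 38924 gene identifiers and 29 libraries. The deposited values are expected counts: per the submitters' processing notes they were made with RSEM 1.2.12 and Bowtie2 2.2.0 against GRCm38, and per the file's values they were deposited as whole numbers. The same notes name SAMtools 0.1.18 and edgeR 3.5.3. No source used here gives the strand setting of the counting. Symbols and positions come from GENCODE M21, which matched 37607 identifiers, and promoter sequences from RefSeq. The 1317 unmatched identifiers kept their place in library sizes and tests.

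The 14 control libraries of 4 populations were fitted together in edgeR 4.0.16 (R 4.3.3, limma 3.58.1) with TMM scaling, filterByExpr (minimum count 10) and the quasi-likelihood test, with 10 residual degrees of freedom, and the 15 mutant libraries likewise, with 11. P-values were adjusted by Benjamini-Hochberg over all genes tested, at a threshold of 0.05. The SE was derived from the log2 difference and the F statistic, and the prior count for log2 CPM was 2. Non-overlap means that every library of one group lay above every library of the other. The genotype difference was an interaction term over 29 libraries. The edgeR steps were tested on simulated data.

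Named genes are, per direction, the 15 with the smallest p and the 10 with the largest fold and at least 10 CPM in the higher group, every called member of 34 lists, and the genes of the sort with Dnmt3a. Some genes that meet this rule are not reported here. Members that missed the threshold were named for their role. The members and lists were chosen with earlier results of these data known. Alternatives were DESeq2 1.42.0, limma with voom weights, other scalings and filters, leaving out libraries or gene classes, a replicate block, and, chosen after seeing the data, the header prefix as a term, 1 prefix alone and robust spread estimation. Replicates of a group differed by more than counting noise, so each was counted as 1 sample. Replicate numbers follow the titles.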

Additional observations from a re-analysis of the deposited data

Results flagged for a closer look

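In control LT-HSC, the 4 libraries of each of 141 named genes were examined for 1 library far from the others, as the gap to the nearest library divided by the range of log2 CPM. This ratio exceeded Dixon's 95% critical value for 4 samples in 13 genes, and chance gives about 1 in 20. Replicate 1 was the library that stood apart in 6 of them, replicates 3 and 4 in 3 each and replicate 2 in 1.

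Replicate 1 was lowest for Cdk6 (ratio 0.844, 289.7 CPM against 454 to 493 CPM in the others), Ly6a (0.837, 20.03 against 31.0 to 33.7 CPM) and Tgfbr3 (0.8291, 47.1 against 94.1 to 109 CPM). It was highest for Prtn3 (0.848, 51.9 against 17.4 to 20.5 CPM) and Gfi1 (0.83, 26.3 against 3.04 to 4.44 CPM). Replicate 4 was lowest for Slfn4 (0.945, 1.45 against 40.5 to 48.7 CPM) and Elane (0.836, 0 against 41.5 to 114 CPM), and highest for Tnip3 (0.858, 49.1 against 17.5 to 20.3 CPM). Replicate 3 was highest for Atf6b (0.886, 21.02 against 13.5 to 14.2 CPM) and lowest for Itgb3 (0.83, 32.7 against 50.7 to 55.4 CPM).

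For 3 genes the ratio was 1.0 because a single library held all the counts: Igha in replicate 3 (0.12 CPM), Ighv9-3 in replicate 2 (0.36 CPM) and ENSMUSG00000094062 in replicate 1 (0.143 CPM). These values are at or under the floor of 3 counts.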

How the results depend on the processing

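The number of genes past the threshold changed with the tool, the filter and the libraries. MPP3 against LT-HSC called 208 genes, and 359 with no filter, 558 in DESeq2 (190 higher, 368 lower), 94 without the control LT-HSC libraries over 100 CPM of S100a8 (51 higher, 43 lower; 1 LT-HSC library left, assumed to vary like the other groups; 65 of the 208 calls remained) and 85 with the libraries of the second header prefix only, an alternative chosen after seeing the data. The DESeq2 and no-filter counts of the other comparisons were 874 in DESeq2 for mutant MPP3 against LT-HSC (436), 350 with no filter and 468 in DESeq2 against MPP4 (215), 396 and 746 against ST-HSC (262), and 13 and 64 for the genotype difference (0). Leaving out each library gave 53 to 233, 164 to 369, 79 to 173, 43 to 261 and 0 to 46 in the order LT-HSC, mutant, MPP4, ST-HSC, genotype, and only control LT-HSC replicate 4 gave a count above 0 in the last. The cause was not tested.

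The other settings gave 174 to 222 calls for MPP3 against LT-HSC. Numbers in the titles and in the descriptions could pair libraries. Description numbers recur across populations, and every control MPP3 library shares its number with a control LT-HSC library. What the number names is not given. The correlations of same-numbered deviations were -0.03, 0.02 and 0.03 by description and -0.03, -0.145 and 0.03 by title. Deviations from the means of so few libraries cannot exclude pairing. The main fit had no block. With a replicate block by description and by title, 174 and 182 genes were called in controls (152 and 147 of the 208 remained) and 390 and 429 in mutants.

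Some signs turned. With single libraries left out, the log2 difference ran from -0.33 to 0.003241 for Kit, -0.24 to 0.10 for Dnmt3a, -0.38 to 0.67 for Csf1r and -0.52 to 0.13 for Mki67. Dnmt3a was at 0.0146 in the title block. Csf1r was at -0.004046 with DESeq2 size factors and -0.004537 in DESeq2; it was 1.38 with the second prefix only and 3.56 without the libraries high in S100a8. Mki67 was at 0.24 with the second prefix only and 0.53 without the libraries high in S100a8. That last setting also turned genes far from 0, 4 of them called: S100a8 (from -3.88 to 3.85), Retnlg (-3.95 to 1.31), Slfn4 (-3.76 to 0.80), ENSMUSG00000089672 (-3.42 to 0.48), Hbb-bs (-2.59 to 1.72) and Mxd1 (-1.82 to 0.19). Depth limits the low genes: 3 counts stand for 0.289 to 0.467 CPM before TMM scaling.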
